A study of Homo sapiens with 18 samples.

Results

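DNA repair and recombination genes were followed through androgen treatment of LNCaP cells and its inhibition by a pair of androgen receptor antagonists. The list held 37 genes, made up of 20 genes of homologous recombination, 6 Fanconi anemia genes, 2 of mismatch repair, 5 of end joining and 4 damage kinases, and was set by gene name, with earlier results of these data known. Of these, 33 had an annotated probe among the 20045 genes on the array annotation, and the probe with the highest mean over all 18 arrays stood for its gene. A probe was tested where that mean lay above 6.31 on the log2 scale, the 40th percentile of all probes, and 29 of the 37 genes met this, among 14433 genes tested in all. The brightest probes of BRIP1, RAD50, FANCM and XRCC4 lay below that value and were left out, and 4 listed genes with no probe under their symbol were not analysed here.

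Homologous recombination repairs broken DNA from an intact sister copy: nucleases trim the ends, the BRCA1 complex directs them to strand invasion of the copy, and helicases and nucleases resolve the joined molecules. It works mainly in cells that are copying or have copied their DNA, whereas end joining, in which the Ku proteins and DNA-dependent protein kinase hold ends for ligation, needs no copy and works throughout the cell cycle. Mismatch repair corrects replication errors, the Fanconi pathway removes crosslinks between strands, and the kinases ATM and ATR with CHEK2 and CHEK1 signal damage and stalled forks. In prostate tissue and in androgen-dependent prostate cancer cells, the androgen receptor is known to drive proliferation and to control a set of repair genes.

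LNCaP is a human prostate cancer line that depends on androgen and carries a mutant androgen receptor, and all groups were treated in charcoal-stripped serum, which is low in steroids. The 6 groups, each of 3 Illumina arrays after 24 h, were DHT with 1 µM flutamide, DHT with 30 µM MJC13, DHT alone, flutamide alone at 1 µM, MJC13 alone at 30 µM, and the vehicle DMSO. DHT (dihydrotestosterone) is given as 10 nM in the sample labels and as 1 nM in the paper. Flutamide is a classic antagonist that competes with DHT for the receptor, and MJC13 is described by the study as directed at the receptor surface, and the doses of the 2 differ.

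All values are deposited log2 signals that were quantile-normalized, so that every array has a median of 6.60. Arrays of 1 group correlated at r of 0.956 to 0.986 over the probes, and the highest r between arrays of different groups was 0.991. The arrays carry replicate numbers 1 to 3 in their titles, another number is given in the descriptions of 11 of the 18, and neither the labels nor the methods say whether replicates were separate cultures, so the p-values may measure technical spread only. Of 7 luminal prostate markers tested, 5 had positive and 2 negative differences with DHT, the largest 2.41. At an unadjusted p under 0.05, 4 were higher and 1 (FOLH1, -0.98) lower (5.55% and 4.05% of all genes). KLK2, a secreted androgen target, rose with DHT (log2 difference 2.23 ± 0.28, SE, limma adjusted p = 0.00181). The basal keratins KRT5, KRT14 and KRT15 were below the filter, and 8 of 10 markers of stroma, endothelium and leukocytes were above it, of which 0 had an unadjusted p under 0.05 with DHT.

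DHT was set against DMSO to ask which repair genes respond to androgen. EXO1, which trims DNA ends for recombination and excises errors in mismatch repair, had higher values under DHT on both of its 2 tested probes. Of these probes, 1 passed the limma adjusted p of 0.05. The changes of 12 of the 29 genes had an unadjusted p under 0.05, all with the higher value under DHT: EXO1, BRCA1, BLM, RAD54B, RAD51AP1, RAD54L, EME1 and RAD51C of recombination, FANCG of the Fanconi genes, and the kinases CHEK1, CHEK2 and ATR. By its brightest probe, 0 of the 29 genes passed the Benjamini-Hochberg adjusted p of 0.05 that limma gave over all probes, against 0.191% of all probes tested (0.0141% in the lower direction), and at an unadjusted p under 0.05 8.28% of all probes passed in either direction. With other settings of the fit, 0 to 9 of the 29 passed. The 9 passed with the replicate number of the array titles as a block, where 1.66% of all probes did. The 12 genes compare with 5.55% of all genes at the same unadjusted p and direction, and 0 of the 29 had such a p with a lower value under DHT (4.05% of all genes). Higher means under DHT were seen for 25 of the 29 (48% of all genes) and lower means for 4 (52%), and for 15 the 3 DHT arrays all lay above the 3 DMSO arrays (8.43% of all genes), while for 0 they all lay below (6.79%). The median difference was 0.46 over the 29 genes and -0.01 over all genes tested.

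The lists differed in their middle values. Median log2 differences were 0.59 for the 16 recombination genes tested, 0.72 for the 3 Fanconi genes and 0.73 for the 4 kinases, against 0.24 for the 4 end joining genes and 0.15 for the 2 mismatch repair genes. An unadjusted p under 0.05 was reached by 8 of 16, 1 of 3 and 3 of 4 genes of recombination, Fanconi and kinases, and by 0 of 4 and 0 of 2 genes of end joining and mismatch repair. All had the higher value under DHT, as did 5.55% of all genes at that p. Of the 3 kinases, ATR had a DMSO mean of 6.36, near the filter value of 6.31. No test was made between lists, and the 95% interval of a single gene reached to either side by 0.32 to 1.01 with a median of 0.49, so that a difference of the size of the end joining median lies inside it.

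**Figure D1:**
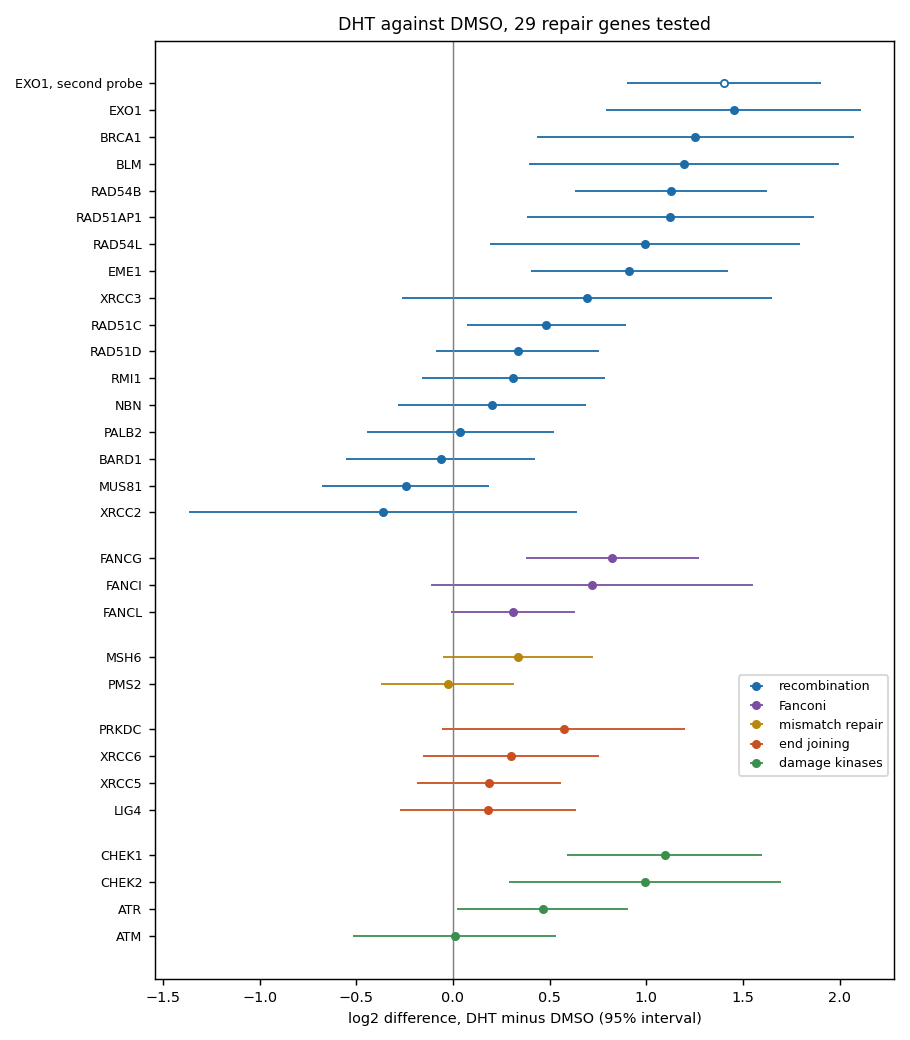
Log2 difference of DHT minus DMSO (x axis) for the 29 repair genes tested and the second EXO1 probe (open symbol), by list; bars are 95% intervals of the limma fit and 3 arrays stand in each group. The recombination genes reach from EXO1 at 1.45 to XRCC2 at -0.36, and the 4 end joining genes lie between 0.18 and 0.57.

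EXO1 had the largest difference of the 29 genes. Its brighter probe, ILMN_1673721, read 10.52, 10.34 and 10.44 on the DHT arrays, against 8.96, 9.02 and 8.95 on the DMSO arrays, a difference of 1.45 ± 0.31 (2.74-fold, limma adjusted p = 0.0749). Its second probe, ILMN_2351916, read 7.61, 8.01 and 7.73 with DHT and 6.60, 6.08 and 6.48 with DMSO, a difference of 1.40 ± 0.24 (2.64-fold, limma adjusted p = 0.0160). On both probes every DHT array lay above every DMSO array, and only the dimmer one passed the threshold. The DMSO mean of the dimmer probe was 6.38, near the filter value of 6.31, so that its difference has no firm size. Over the 18 arrays the probes had a Pearson r of 0.83 (permutation p = 4e-05) and a Spearman rho of 0.81 (permutation p = 0.00014). The permutations shuffled the 18 arrays freely across the 6 groups, so these p-values include differences between groups that both probes share. The Pearson r was 0.77 without the 2 arrays farthest from the median. The deviations from the group means had an r of 0.66, which was not tested. Another annotated EXO1 probe was below the filter, with means of 6.14 with DHT and 6.30 with DMSO. The call of the second probe was lost when DMSO array 1, DMSO array 2, DHT array 2 or DHT array 3 was left out (limma adjusted p = 0.063, 0.139, 0.101 and 0.099), and the brighter probe passed when flutamide array 2 or DHT with MJC13 array 2 was left out (limma adjusted p = 0.034 and 0.023), while its difference stayed between 1.41 and 1.501 whichever array was left out.

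BRCA1, the ubiquitin ligase that directs ends to recombination, had values of 10.77, 9.83 and 10.45 under DHT and 9.26, 9.19 and 8.83 under DMSO. BLM, a helicase that dissolves joined molecules, stood at 8.02, 7.79 and 8.02 on the DHT arrays and 6.78, 6.23 and 7.24 on the DMSO arrays. RAD54B, a motor protein of strand invasion, read 10.14, 10.28 and 10.06 with DHT and 9.23, 8.90 and 8.97 with DMSO. In each of these genes the DHT and DMSO arrays did not overlap. The differences were 1.25 ± 0.39 for BRCA1, 1.20 ± 0.38 for BLM and 1.13 ± 0.24 for RAD54B (2.39-, 2.29- and 2.18-fold), and limma adjusted p was 0.300, 0.322 and 0.0659. A second BRCA1 probe gave 1.28 ± 0.42. RAD54B, with its small spread within groups, came closest to the threshold of the 3, and passed it when flutamide array 2, DHT with MJC13 array 1 or DHT with MJC13 array 2 was left out (limma adjusted p = 0.046, 0.022 and 0.024).

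RAD51AP1, which promotes strand pairing, read 12.20, 12.03 and 12.40 on the DHT arrays and 10.98, 10.83 and 11.44 on the DMSO arrays (difference 1.13 ± 0.35, limma adjusted p = 0.308). RAD54L, the close relative of RAD54B, had 10.12, 9.99 and 10.37 with DHT and 9.14, 8.80 and 9.57 with DMSO (difference 0.99 ± 0.38, limma adjusted p = 0.460). EME1, the partner of the nuclease MUS81, gave 8.78, 8.88 and 8.96 under DHT and 7.96, 7.65 and 8.26 under DMSO (difference 0.91 ± 0.24, limma adjusted p = 0.176). The 3 genes share a spread of about the same size in DMSO, where array 3 was the highest in each, and their DHT arrays all lay above it. RAD51C, which acts in recombination in complex with XRCC3, had 13.32, 13.16 and 13.41 with DHT and 12.88, 12.51 and 13.05 with DMSO, a difference of 0.48 ± 0.20 (limma adjusted p = 0.500), and its other 2 tested probes gave 0.55 and 0.85.

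The remaining recombination genes had p of 0.05 or more. Positive differences were found for XRCC3 (0.69), RAD51D (0.34), RMI1 (0.31) and NBN (0.20), in which XRCC3 is the partner of RAD51C, RAD51D works in complex with XRCC2, RMI1 is a partner of BLM and NBN belongs to the complex that first binds a break. A second RMI1 probe gave 0.57 (unadjusted p = 0.0135 from limma) and a second NBN probe 0.00. PALB2, a partner of BRCA1, had the smallest difference of the list (8.32, 8.10 and 8.32 with DHT against 8.54, 7.94 and 8.14 with DMSO, difference 0.04, 95% interval -0.45 to 0.52). BARD1, which binds BRCA1 to form the active ligase, read 12.76, 12.34 and 12.61 on the DHT arrays and 12.81, 12.78 and 12.32 on the DMSO arrays, a difference of -0.06 with an interval of -0.55 to 0.42. The nuclease MUS81 (-0.25) and XRCC2 (-0.36), which works with RAD51D, also had negative differences, and a second XRCC2 probe gave 0.26. So within the pairs that act as 1 complex, BRCA1 with BARD1 and EME1 with MUS81, the 2 partners had unequal differences, 1.25 against -0.06 and 0.91 against -0.25, and the difference within a pair was not tested.

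**Figure D2:**
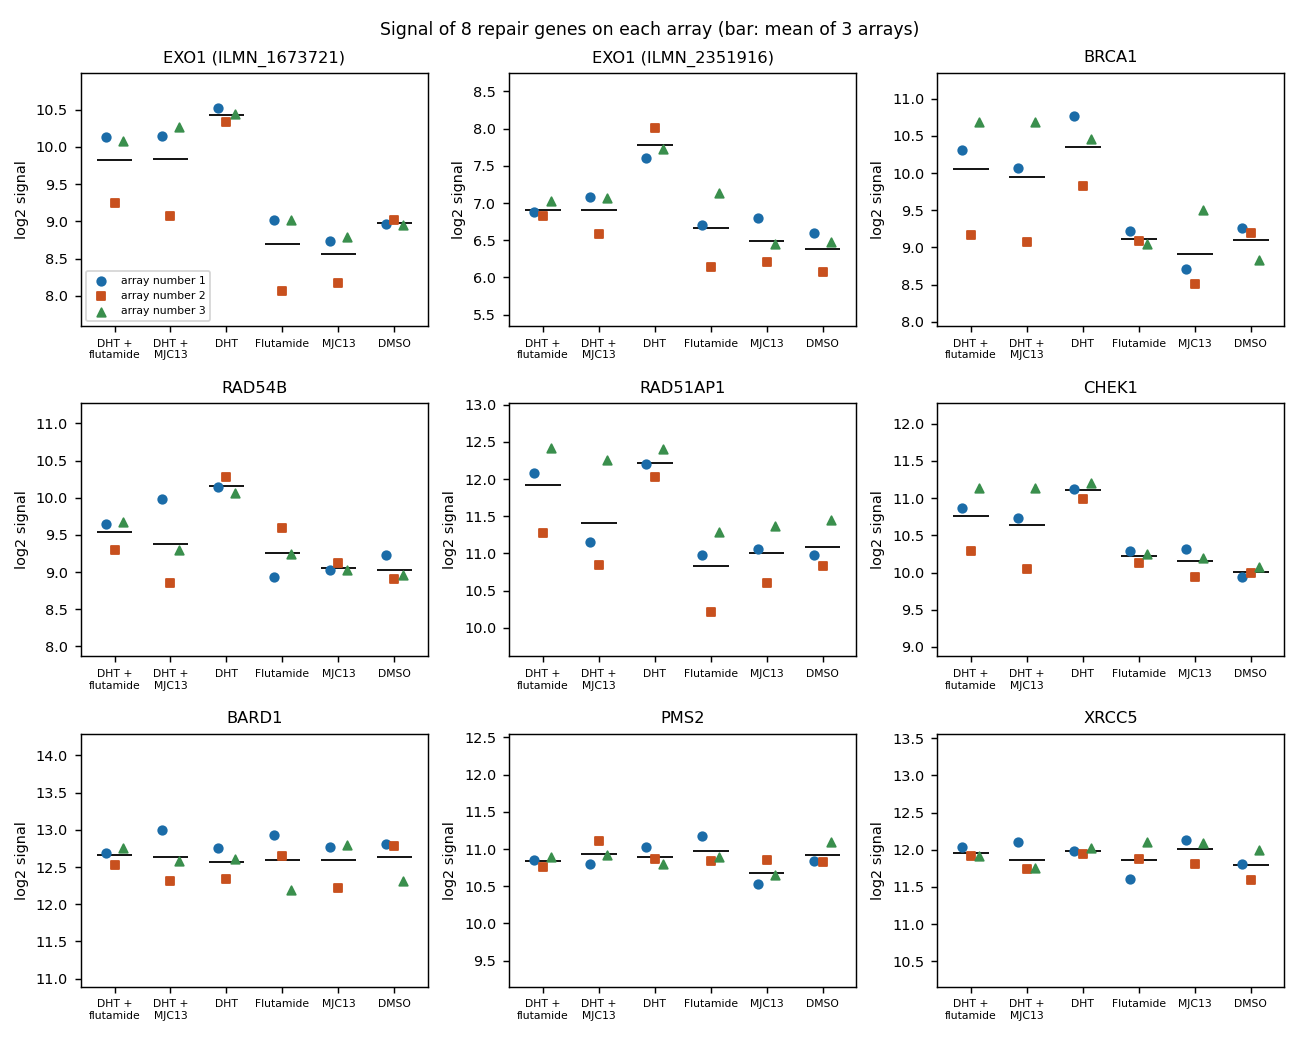
Log2 signal (y axis, each panel its own range) of EXO1 on both tested probes and of 7 other repair genes on each of the 18 arrays, by group; symbols are array numbers and bars are means of 3 arrays. EXO1, BRCA1, RAD54B, RAD51AP1 and CHEK1 have their highest means in the DHT group, while the means of BARD1 lie between 12.57 and 12.66 in all 6 groups.

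Among the Fanconi genes, FANCG, a subunit of the core complex, read 11.02, 11.19 and 11.22 with DHT and 10.27, 10.34 and 10.35 with DMSO, a difference of 0.82 ± 0.21 (limma adjusted p = 0.168). FANCI, which the core complex marks with ubiquitin, had a difference of 0.72 ± 0.40. FANCL, the ubiquitin ligase of the core complex, had the smallest, 9.76, 9.85 and 9.78 with DHT against 9.41, 9.56 and 9.48 with DMSO (0.31 ± 0.15). DHT and DMSO arrays did not overlap in any of the 3, and for FANCI and FANCL the unadjusted p was 0.0859 and 0.0574.

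Neither mismatch repair gene passed an unadjusted p of 0.05. MSH6, which recognises mispaired bases, had 12.54, 12.04 and 12.32 under DHT and 11.86, 12.15 and 11.89 under DMSO (difference 0.34, 95% interval -0.05 to 0.72), and the groups overlapped. PMS2, the nuclease that nicks the new strand, had 11.02, 10.86 and 10.80 under DHT and 10.84, 10.83 and 11.10 under DMSO (difference -0.03, 95% interval -0.37 to 0.32). The other 2 tested PMS2 probes gave -0.24 and -0.52. A doubling, which EXO1 exceeded, lies outside both intervals.

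The 4 end joining genes all had positive differences on their brightest probes, with unadjusted p above 0.05. PRKDC, the catalytic subunit of DNA-dependent protein kinase, had the largest, with 11.72, 11.68 and 11.46 on the DHT arrays and 11.07, 11.42 and 10.65 on the DMSO arrays (0.57 ± 0.30, unadjusted p = 0.0715 from limma). Its other 3 tested probes gave 0.59 (unadjusted p = 0.00885 from limma), 0.28 and 0.25. The Ku subunits XRCC6 and XRCC5 had differences of 0.30 and 0.19. LIG4, which seals the joined ends, had the smallest (7.72, 7.34 and 7.63 with DHT against 7.56, 7.39 and 7.19 with DMSO, 0.18, 95% interval -0.27 to 0.64). Its 2 dimmer probes went the other way, at -0.53 (unadjusted p = 0.0412 from limma) and -0.38. Their DHT means of 6.24 and 6.30 lay below the filter value of 6.31, so that these differences have no firm size. PRKDC was the only gene of the 4 whose DHT arrays all lay above its DMSO arrays.

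CHEK1, the kinase that ATR activates at stalled forks, read 11.12, 10.99 and 11.20 with DHT and 9.95, 9.9999 and 10.07 with DMSO, a difference of 1.10 ± 0.24 (limma adjusted p = 0.0789), and passed the threshold when DHT with MJC13 array 2 or array 3 was left out (limma adjusted p = 0.024 and 0.042). CHEK2, which ATM activates at breaks, had 9.99, 10.13 and 10.42 with DHT and 9.19, 9.03 and 9.35 with DMSO (0.99 ± 0.34, limma adjusted p = 0.364), and a second probe gave 0.90. The effector kinases thus had nonoverlapping groups. Of the upstream kinases, ATR had 7.08, 6.85 and 6.54 under DHT and 6.66, 6.07 and 6.34 under DMSO, which overlap (0.46 ± 0.21, unadjusted p = 0.0405 from limma). Its mean over the 18 arrays, 6.46, was near the filter value of 6.31. The highest group means were those of DHT (6.82) and DHT with flutamide (6.74). Its DMSO mean was 6.36, so that the difference has no firm size. ATM had 10.96, 10.42 and 10.48 under DHT and 10.73, 10.93 and 10.18 under DMSO, the smallest difference of the 29 genes (0.01, 95% interval -0.52 to 0.53), and -0.19 on its second probe.

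Other genes of the same pathways and of the cell cycle gave the setting. Of 56 further recombination, Fanconi, mismatch repair, end joining and damage signalling genes tested, 18 had an unadjusted p under 0.05 with a higher value under DHT (5.55% of all genes). At that p 0 had a lower one (4.05%), and the median difference was 0.25. The 3 largest of each of these lists were RMI2 (1.36), RECQL4 (0.89) and SFR1 (0.71) for recombination, FANCB (1.45), UBE2T (0.80) and FANCC (0.72) for the Fanconi pathway, PMS1 (0.24), MLH3 (0.15) and MSH3 (-0.01) for mismatch repair, POLQ (1.37), POLM (-0.40) and PAXX (0.37) for end joining and CLSPN (0.87), H2AX (0.81) and TIPIN (0.79) for damage signalling. POLQ, at 2.58-fold, is the polymerase of the alternative form of end joining that anneals short repeats, and the other end joining genes had a median of 0.13. Excision repair genes, which mend damaged bases, had a median of 0.07. Of 28 tested, 2 had that p with the higher value under DHT, NEIL3 (1.73) and UNG (0.79), close to the 5.55% of all genes. OGG1 was next at 0.53.

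Replication and mitosis genes had differences in the same direction as most recombination genes. Of 15 replication genes tested, 12 had an unadjusted p under 0.05 with the higher value under DHT (5.55% of all genes). The median difference was 1.14, led by RRM2 (1.58), CDC6 (1.38) and MCM4 (1.31), of which CDC6, a licensing factor, rose (limma adjusted p = 0.0172). Of 9 mitosis genes, 5 did, with a median of 0.90, led by CCNA2 (1.31), TOP2A (1.07) and CDK1 (1.02). In RNA from whole wells, more cells in a phase of the cycle and more RNA per cell cannot be told apart, and the part of the cell cycle in the repair gene differences was not tested.

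RefSeq promoter windows (GRCh38.p14, 250 bases before to 50 after the gene start) were searched on both strands for letters that cell cycle factors and the androgen receptor are known to bind. These were the E2F-type spellings TTTCCCGC, TTTCGCGC, TTTGCCGC, TTTGGCGC and GGCGGGAA, of which GGCGGGAA can overlap the reverse complement of TTTCCCGC, the box CCAAT, the cell cycle homology region spellings TTTGAA and TTCGAA, the androgen response element (its arm and the arm's reverse complement, 3 bases apart) and its arm AGAACA alone, which is part of the full element. Windows were found for 32 of the 37 genes, and 12 had several. A gene was counted if any of its windows held a match, whereas the shares of all windows count each window alone. The counts of genes can therefore run higher than those shares for that reason only. Of the 12 genes with an unadjusted p under 0.05, 11 had a window, and 4 of these (EXO1, RAD51AP1, RAD54L and BLM) held an E2F-type spelling, against 7 of 13 other tested genes (XRCC2, XRCC3, RMI1, FANCL, MSH6, PMS2 and XRCC6) and 5.58% of all 35116 windows. CCAAT was held by 6 of 11 and 9 of 13 (34.6% of all windows), the homology region by 0 of 11 and 1 of 13 (16.4%), and the arm AGAACA by EXO1 in the first set and LIG4 in the second (14.8%). The full element was found in the windows of 0 tested genes and in 0.00285% of all windows. E2F-type letters were thus held by genes with large and with small differences alike.

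Printed 5′ to 3′ are the windows of EXO1, BLM and RAD51AP1, with differences of 1.45, 1.20 and 1.13, and of XRCC2 and BARD1, recombination genes with differences of -0.36 and -0.06, to show the same letters in genes on both sides. Capitals mark the E2F-type spellings, the box CCAAT and the arm of the androgen response element, read on either strand, and the BARD1 window holds none of them. EXO1 has 2 windows, and the one with matches is shown (chr1:241847954-241848253, plus strand); the others lie at chr15:90717096-90717395, plus strand (BLM), chr12:4538640-4538939, plus strand (RAD51AP1), chr7:152676092-152676391, minus strand (XRCC2) and chr2:214809634-214809933, minus strand (BARD1).
EXO1: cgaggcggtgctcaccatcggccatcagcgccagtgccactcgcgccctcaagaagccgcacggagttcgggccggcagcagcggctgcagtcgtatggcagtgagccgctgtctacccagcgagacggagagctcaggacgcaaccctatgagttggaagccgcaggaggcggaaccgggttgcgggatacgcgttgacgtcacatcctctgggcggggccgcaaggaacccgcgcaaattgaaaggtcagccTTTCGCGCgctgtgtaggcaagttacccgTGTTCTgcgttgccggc
BLM: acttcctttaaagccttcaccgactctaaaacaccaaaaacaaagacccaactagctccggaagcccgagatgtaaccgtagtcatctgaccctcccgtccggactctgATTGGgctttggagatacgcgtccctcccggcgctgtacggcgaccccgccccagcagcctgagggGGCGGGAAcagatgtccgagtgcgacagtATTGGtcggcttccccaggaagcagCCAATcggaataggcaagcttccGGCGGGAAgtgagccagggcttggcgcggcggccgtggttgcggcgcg
RAD51AP1: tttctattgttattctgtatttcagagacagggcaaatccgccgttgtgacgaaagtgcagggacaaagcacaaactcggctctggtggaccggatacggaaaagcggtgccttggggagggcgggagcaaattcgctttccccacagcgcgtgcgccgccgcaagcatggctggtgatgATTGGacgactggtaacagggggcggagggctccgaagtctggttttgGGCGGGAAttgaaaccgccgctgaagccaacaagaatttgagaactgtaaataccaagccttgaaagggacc
XRCC2: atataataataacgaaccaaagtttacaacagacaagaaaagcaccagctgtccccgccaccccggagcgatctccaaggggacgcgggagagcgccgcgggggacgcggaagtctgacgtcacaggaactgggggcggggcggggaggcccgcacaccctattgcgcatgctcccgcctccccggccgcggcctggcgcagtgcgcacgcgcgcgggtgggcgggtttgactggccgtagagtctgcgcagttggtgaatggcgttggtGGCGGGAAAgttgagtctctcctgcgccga
BARD1: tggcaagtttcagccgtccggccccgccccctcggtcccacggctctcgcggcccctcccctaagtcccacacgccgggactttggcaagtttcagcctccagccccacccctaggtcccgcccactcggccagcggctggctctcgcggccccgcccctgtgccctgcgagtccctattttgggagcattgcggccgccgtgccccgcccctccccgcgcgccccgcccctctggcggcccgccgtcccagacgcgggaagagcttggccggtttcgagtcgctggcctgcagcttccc

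**Figure D3:**
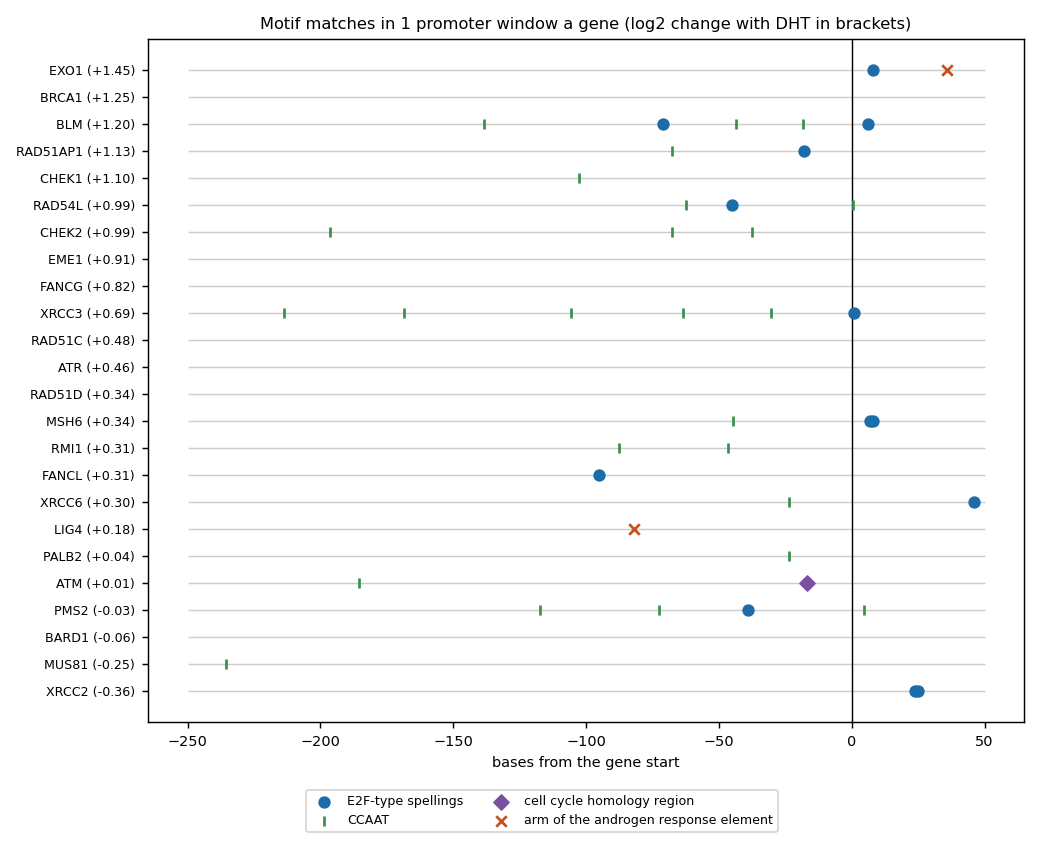
Positions of motif matches (x axis, bases from the gene start) in 1 promoter window for each of the 24 tested genes with a window, ordered by log2 difference with DHT. E2F-type spellings lie in EXO1 and BLM near the top and in PMS2 and XRCC2 near the bottom; genes with several windows can hold further matches in the windows not drawn.

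The DHT response was then measured in the presence of each antagonist, as DHT with flutamide against flutamide and DHT with MJC13 against MJC13. With flutamide, 7 of the 29 genes had an unadjusted p under 0.05 with the higher value under DHT (2.36% of all genes): EXO1, BRCA1, RAD51AP1, FANCL and the kinases ATR, CHEK1 and CHEK2. With MJC13, 6 did (2.9% of all genes): EXO1, BRCA1, RAD54L, EME1, FANCG and MSH6. In both settings 0 of the 29 passed the limma adjusted p of 0.05, as did 0 of the 28334 probes, of which 4.64% with flutamide and 5.66% with MJC13 had an unadjusted p under 0.05. At that p, 0 of the 29 genes had a lower value with flutamide (2.19% of all genes) or with MJC13 (2.57%). The response was positive in 22 genes and negative in 7 with flutamide (48.9% and 51.1% of all genes), and likewise in 22 and 7 with MJC13 (49.6% and 50.4%). The median response was 0.28 with flutamide and 0.32 with MJC13, against 0.46 without an antagonist and -0.01 and -0.00 over all genes. Arrays did not overlap, with the DHT group higher, in 4 genes with flutamide (3.47% of all genes) and 4 with MJC13 (5.68%), and with it lower in 0 (3.46%) and 0 (5.68%). Without array 2 of DHT with flutamide the median with flutamide was 0.45.

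EXO1 kept the largest response with either antagonist. Its brighter probe read 10.14, 9.24 and 10.09 with DHT and flutamide, against 9.02, 8.06 and 9.02 with flutamide, a response of 1.12 ± 0.31 (limma adjusted p = 0.990). It read 10.15, 9.08 and 10.27 with DHT and MJC13, against 8.73, 8.17 and 8.79 with MJC13, a response of 1.27 ± 0.31 (limma adjusted p = 0.744). In both pairs the DHT arrays did not overlap the others, although array 2 was the lowest of each group. The second probe had smaller responses, and its arrays read 6.88, 6.83 and 7.03 with DHT and flutamide and 6.71, 6.14 and 7.13 with flutamide, and 7.08, 6.58 and 7.07 with DHT and MJC13 and 6.80, 6.21 and 6.45 with MJC13. The paired groups overlapped on it. Its means with DMSO (6.38), MJC13 alone (6.49) and flutamide alone (6.66) lay near the filter value of 6.31, so that its responses have no firm size. The response there was 0.25 with flutamide and 0.42 with MJC13, and the change of the response against that without antagonist was -1.15 ± 0.34 and -0.98 ± 0.34 (unadjusted p = 0.00312 and 0.00951, limma adjusted p = 1.00 and 0.999), where the brighter probe had -0.33 ± 0.44 and -0.18 ± 0.44.

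RAD54B had the lowest share of its response left with flutamide among the 12 genes, and after ATR the lowest with MJC13. It read 9.64, 9.29 and 9.67 with DHT and flutamide and 8.93, 9.59 and 9.24 with flutamide. With MJC13 the values were 9.99, 8.85 and 9.30 under DHT and 9.03, 9.13 and 9.02 without it. The responses were 0.28 and 0.32, 24.9% and 28.5% of that without an antagonist on the log2 scale, and the changes of the response were -0.85 ± 0.33 and -0.81 ± 0.33 (unadjusted p = 0.0208 and 0.0267 from limma, limma adjusted p = 1.00 and 0.999). ATR stood at -0.24 in its response with MJC13 and 0.67 with flutamide, the only gene of the 12 with a negative response.

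BRCA1 read 10.31, 9.17 and 10.69 with DHT and flutamide and 9.22, 9.09 and 9.05 with flutamide, and 10.07, 9.07 and 10.69 with DHT and MJC13 and 8.70, 8.51 and 9.50 with MJC13 (responses 0.94 and 1.04). RAD51AP1 read 12.08, 11.28 and 12.41 with DHT and flutamide and 10.98, 10.22 and 11.29 with flutamide, and 11.15, 10.84 and 12.25 with DHT and MJC13 and 11.05, 10.60 and 11.37 with MJC13 (responses 1.09 and 0.41). RAD54L read 10.14, 8.98 and 10.22 with DHT and flutamide and 8.92, 8.78 and 9.56 with flutamide, and 10.29, 8.85 and 10.40 with DHT and MJC13 and 8.58, 8.38 and 9.19 with MJC13 (responses 0.70 and 1.13). In all 3 genes, array 2 was the lowest of each of these groups, except in flutamide alone for BRCA1, and the paired groups overlapped. BLM had 7.62, 6.71 and 7.75 with DHT and flutamide and 7.01, 6.46 and 7.29 with flutamide, and 7.63, 6.51 and 8.02 with DHT and MJC13 and 6.78, 6.06 and 7.31 with MJC13 (responses 0.44 and 0.67). EME1 had 8.49, 8.34 and 8.87 with DHT and flutamide and 8.07, 8.32 and 7.83 with flutamide, and 8.53, 7.95 and 8.94 with DHT and MJC13 and 7.998, 7.61 and 8.16 with MJC13 (responses 0.50 and 0.55). RAD51C had 13.05, 12.82 and 13.42 with DHT and flutamide and 12.91, 12.64 and 13.03 with flutamide, and 13.08, 12.80 and 13.25 with DHT and MJC13 and 12.66, 12.57 and 12.82 with MJC13 (responses 0.24 and 0.36). BLM and RAD51C overlapped between the paired groups with either antagonist, and EME1 was apart with flutamide and overlapped with MJC13.

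CHEK1 read 10.86, 10.28 and 11.13 with DHT and flutamide and 10.29, 10.12 and 10.24 with flutamide, and 10.73, 10.05 and 11.14 with DHT and MJC13 and 10.32, 9.95 and 10.19 with MJC13 (responses 0.54 and 0.49). CHEK2 read 9.90, 9.68 and 10.41 with DHT and flutamide and 8.66, 8.99 and 9.92 with flutamide, and 9.83, 9.09 and 10.36 with DHT and MJC13 and 9.69, 8.77 and 9.61 with MJC13 (responses 0.81 and 0.40). ATR read 6.92, 6.29 and 7.002 with DHT and flutamide and 6.12, 6.05 and 6.04 with flutamide, and 6.21, 6.37 and 6.20 with DHT and MJC13 and 6.67, 6.27 and 6.56 with MJC13. The groups of ATR were apart with flutamide and overlapped with MJC13, and its means with flutamide alone (6.07) and with DHT and MJC13 (6.26) lay below the filter value of 6.31, among the dimmest signals, so that its differences with these groups have no firm size. FANCG had 10.76, 10.53 and 11.27 with DHT and flutamide and 10.25, 10.65 and 10.32 with flutamide, and 10.97, 10.50 and 11.29 with DHT and MJC13 and 10.22, 9.96 and 10.02 with MJC13, a response of 0.45 with flutamide and of 0.85 ± 0.21 with MJC13 (limma adjusted p = 0.744), and it was apart with MJC13 only.

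Of the genes chosen for small or largest differences in their lists, MSH6 read 12.41, 12.0002 and 12.47 with DHT and flutamide, 11.95, 12.20 and 11.89 with flutamide, 12.31, 12.08 and 12.45 with DHT and MJC13 and 11.83, 11.65 and 11.81 with MJC13 (responses 0.28 and 0.52). PMS2 read 10.85, 10.76 and 10.90 with DHT and flutamide, 11.17, 10.83 and 10.89 with flutamide, 10.80, 11.10 and 10.92 with DHT and MJC13 and 10.53, 10.85 and 10.65 with MJC13 (responses -0.13 and 0.26). The response of MSH6 with MJC13 had nonoverlapping groups and an unadjusted p of 0.0116 (limma adjusted p = 0.839). PRKDC read 11.001, 11.30 and 11.74 with DHT and flutamide, 11.76, 11.75 and 10.59 with flutamide, 11.35, 11.08 and 11.89 with DHT and MJC13 and 11.46, 11.13 and 10.94 with MJC13 (responses -0.02 and 0.26). On its dimmer tested probes the means were 9.15, 9.04 and 8.28 with DHT and flutamide, above the 8.80, 8.56 and 7.72 with flutamide. With MJC13 they were 9.14, 8.72 and 8.20 under DHT and 9.12, 8.89 and 8.32 without it. LIG4 read 7.42, 7.55 and 7.69 with DHT and flutamide, 7.63, 8.31 and 7.52 with flutamide, 7.56, 7.93 and 7.42 with DHT and MJC13 and 7.91, 7.69 and 7.42 with MJC13 (responses -0.27 and -0.03). On the brightest probes of both end joining genes the antagonist arrays with and without DHT overlapped. PALB2 had 8.13, 8.37 and 8.64 with DHT and flutamide, 8.01, 7.92 and 8.69 with flutamide, 8.35, 8.19 and 8.37 with DHT and MJC13 and 8.15, 7.77 and 8.47 with MJC13 (responses 0.17 and 0.17). FANCL had 9.87, 9.77 and 9.73 with DHT and flutamide, 9.33, 9.35 and 9.26 with flutamide, 9.57, 9.87 and 9.48 with DHT and MJC13 and 9.56, 9.58 and 9.35 with MJC13 (responses 0.47 and 0.14). ATM had 10.70, 10.68 and 10.34 with DHT and flutamide, 10.99, 10.69 and 10.39 with flutamide, 11.08, 10.59 and 10.23 with DHT and MJC13 and 11.04, 10.81 and 10.51 with MJC13 (responses -0.12 and -0.15). FANCL was the only one of these 3 with groups apart, and only with flutamide (unadjusted p = 0.00604, limma adjusted p = 0.990).

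**Figure D4:**
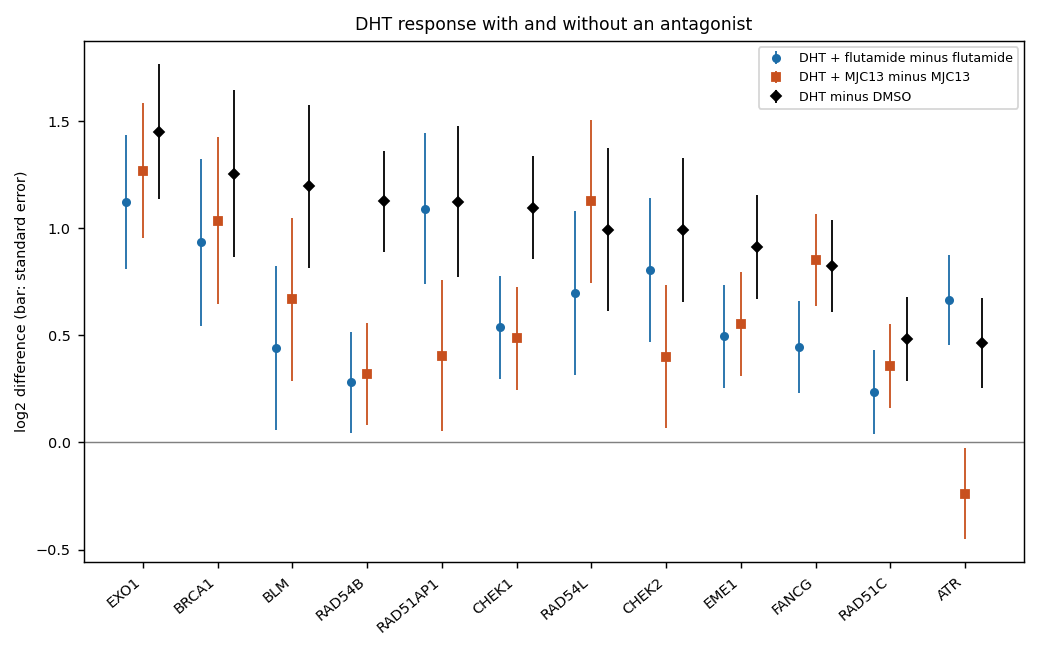
DHT response (y axis, log2 difference with standard error) with flutamide, with MJC13 and without an antagonist, for the 12 repair genes with an unadjusted p under 0.05 in DHT against DMSO; 3 arrays stand in each group. EXO1 keeps 1.12 and 1.27 of 1.45, and ATR alone lies below 0, with MJC13.

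Over the 12 genes with an unadjusted p under 0.05 in DHT against DMSO, the median response was 0.60 with flutamide and 0.52 with MJC13, against 1.05 without an antagonist. It was smaller with flutamide in 11 (all but ATR) and smaller with MJC13 in 10 (all but RAD54L and FANCG). These genes were picked by their values on the DHT and DMSO arrays, so that the counts are a description and carry no test. The change of the response had an unadjusted p under 0.05 for 1 of all 29 genes with flutamide (RAD54B, against 0.991% of all genes) and for 2 with MJC13 (RAD54B and ATR, 1.69%), and 0 of the 29 passed limma's adjusted p of 0.05 in either. The median change over the 29 genes was -0.19 with flutamide and -0.17 with MJC13. It was -0.03 without array 2 and -0.36 without array 3 of DHT with flutamide, and for MJC13 -0.01 without array 2 and -0.26 without array 1 of DHT with MJC13 and -0.07 without array 3 of MJC13.

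By list, the medians of the response were 0.35 with flutamide and 0.34 with MJC13 for recombination (0.59 without), 0.45 and 0.81 for the Fanconi genes (0.72 without), and 0.60 and 0.12 for the kinases (0.73 without). For end joining they were -0.02 and -0.05 (0.24 without), and for mismatch repair 0.07 and 0.39 (0.15 without). On the brightest probes the recombination genes so kept a positive median with both antagonists, and the end joining genes had medians near 0. Without the arrays numbered 2 the recombination medians were 0.48 with flutamide and 0.46 with MJC13, against 0.38 without an antagonist. The end joining genes then had 0.08 and -0.18, against 0.20. On those remaining arrays the change of the response by flutamide was negative in 8 and positive in 8 recombination genes (median -0.002). By MJC13 it was negative in 10 and positive in 6 (median -0.11). With all arrays, the replication genes had median responses of 0.55 and 0.65 (1.14 without) and the mitosis genes 0.54 and 0.63 (0.90 without).

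Set directly against DHT alone, DHT with flutamide had the lower mean in 25 of the 29 genes (50.7% of all genes) and DHT with MJC13 in 22 (49.6%), with median differences of -0.19 and -0.18. The mean was higher in 4 genes (49.3%) with flutamide and 7 (50.4%) with MJC13. An unadjusted p under 0.05 was found for RAD54B with flutamide (-0.62 ± 0.24, 0.804% of all genes lower at that p), and for RAD51AP1 (-0.80 ± 0.35), RAD54B (-0.78 ± 0.24) and ATR (-0.56 ± 0.21) with MJC13 (1.64% of all genes). The second EXO1 probe had -0.87 ± 0.24 with flutamide and -0.88 ± 0.24 with MJC13, and the brighter one -0.61 ± 0.31 and -0.60 ± 0.31. Groups did not overlap, with DHT alone higher, in 3 of the 29 genes for flutamide (3.91% of all genes) and 3 for MJC13 (4.43%), and 0 passed limma's adjusted p of 0.05 in either comparison, as did 0 probes of all, of which 1.54% with flutamide and 3.08% with MJC13 had an unadjusted p under 0.05. Groups lay apart with DHT alone lower in 0 genes (2.83%) for flutamide and 0 (4.2%) for MJC13, and a higher value at an unadjusted p under 0.05 was found for 0 (0.499%) and 0 (1.21%). The 2 comparisons share the DHT arrays. The first median was -0.01 without array 2 and -0.27 without array 3 of DHT with flutamide. The second was -0.06 without array 2 and -0.36 without array 3 of DHT with MJC13.

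The antagonists were also compared with each other. The response with MJC13 minus that with flutamide had a median of 0.04 over the 29 genes, positive in 15 and negative in 14, and ran from -0.10 without MJC13 array 2 to 0.24 without array 2 of DHT with MJC13. Among the 12 genes, 8 had the larger response with MJC13 and 4 with flutamide (RAD51AP1, CHEK1, CHEK2 and ATR). ATR alone of the 29 had an unadjusted p under 0.05 (-0.90 ± 0.30, 95% interval -1.53 to -0.28, limma adjusted p = 0.996, 1.73% of all genes in that direction), and on the arrays with DHT it was lower with MJC13 than with flutamide by a log2 difference of -0.47 (95% interval -0.92 to -0.03), both resting on group means below the filter value. For EXO1 the difference between the responses was 0.15 (95% interval -0.78 to 1.08), for BRCA1 0.10 (-1.06 to 1.26) and for RAD51AP1 -0.69 (-1.74 to 0.36), so that these genes leave room for a difference of a doubling or more in at least 1 direction. With 0 of the 29 genes past limma's adjusted p of 0.05 and 95% intervals that reached 0.69 to either side at the median, neither a difference nor its absence was shown.

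Given without DHT, the antagonists were set against DMSO to ask whether they act on these genes on their own. Flutamide alone had a median difference of 0.04 and MJC13 alone of -0.04 over the 29 genes, and 0 of the 29 had an unadjusted p under 0.05 in either comparison, against 1.15% (higher) and 0.776% (lower) of all genes for flutamide and 0.714% and 0.991% for MJC13. EXO1 had -0.28 (95% interval -0.94 to 0.38) with flutamide and -0.42 (-1.08 to 0.24) with MJC13. On dimmer probes, XRCC2 had 0.67 and LIG4 -0.51 with flutamide and PRKDC 0.44 with MJC13, each at an unadjusted p under 0.05, while their brightest probes had -0.54, 0.44 and 0.13. The median for MJC13 alone was 0.12 without MJC13 array 2 and -0.19 without MJC13 array 3.

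Array number went with the level of these genes. The mean over the 29 genes, as a log2 difference from the DMSO mean, was 0.44, 0.03 and 0.59 on arrays 1 to 3 of DHT with flutamide, 0.41, -0.04 and 0.50 of DHT with MJC13 and 0.59, 0.41 and 0.59 of DHT, against 0.00, -0.08 and 0.11 of flutamide, 0.01, -0.30 and 0.10 of MJC13 and 0.05, -0.12 and 0.06 of DMSO. Array 2 was the lowest in all 6 groups, which also held for the recombination, replication and mitosis genes in 6 of 6 groups and for the end joining genes in 2 of 6. Array 2 of both groups with DHT and an antagonist lay inside the range of the groups without DHT. Taken number by number, DHT minus DMSO was 0.53 for each of the numbers 1, 2 and 3, DHT with flutamide minus DHT was -0.15, -0.38 and -0.01, and DHT with MJC13 minus DHT was -0.17, -0.45 and -0.10.

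With the 6 arrays numbered 2 left out, the median difference of DHT against DMSO over the 29 genes was 0.36. By its brightest probe 1 gene, EXO1, passed (difference 1.52, limma adjusted p = 0.0093), as did 0.113% of all probes tested. The second EXO1 probe did not pass (1.13, limma adjusted p = 0.110). The median response was then 0.50 with flutamide and 0.42 with MJC13, neither below the 0.36 without an antagonist. Gene by gene on the remaining arrays, the change of the response by flutamide was negative in 18 and positive in 11 (median -0.04). By MJC13 it was negative in 20 and positive in 9 (median -0.15). Over all 14433 genes tested it was negative in 7667 with flutamide and 7343 with MJC13. The medians against DHT alone were -0.06 and -0.08. The recombination genes had 0.48 with flutamide and 0.46 with MJC13, against 0.38 without an antagonist. The replication genes had median responses of 0.80 with flutamide and 0.77 with MJC13, against 0.83 without an antagonist, on the same arrays. Their change of the response was negative in 13 and positive in 2 of the 15 genes with flutamide (median -0.25). With MJC13 it was negative in 10 and positive in 5 (median -0.16). Array quality and the share of cycling cells on the arrays numbered 2 were not tested.

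**Figure D5:**
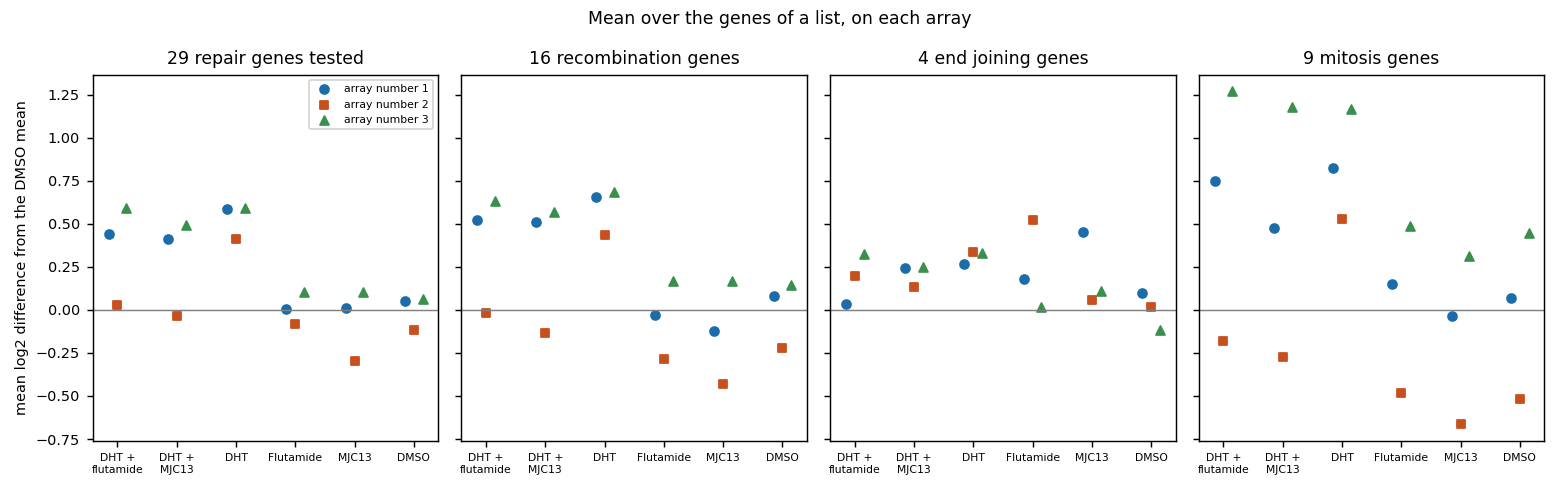
Mean over the genes of a list (y axis, log2 difference from the DMSO mean) on each of the 18 arrays, for the 29 repair genes, the 16 recombination, 4 end joining and 9 mitosis genes; symbols are array numbers. Array 2 is the lowest in every group except in the end joining panel, and the 3 DHT arrays of the first panel (0.59, 0.41 and 0.59) lie above all 9 arrays without DHT.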

How the data were processed

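RNA of LNCaP cells was measured on 18 Illumina bead arrays, 3 for each of 6 groups. The authors took unmodified signals from GenomeStudio, then subtracted background and quantile-normalized with lumi, and the values they deposited are log2 signals between 5.81 and 14.82. Neither the tool versions nor whether the log2 scale was variance-stabilized is given in the sources used here, so folds are antilogs on that scale. Quantile normalization sets all arrays to 1 distribution and can hide a shift shared by most genes. A second, non-normalized table was not used, since nothing ties its 36 columns of per-sample values (18 chip positions) to the samples.

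Of 47223 probes, 30111 carried 1 gene symbol in the platform annotation, 8 several and 17104 none, and no gene was named from a probe with several. A filter kept the brighter 28334 probes (mean over the 40th percentile), which went into limma 3.58.1 in R 4.3.3, as 6 group means with 12 residual degrees of freedom. P-values were adjusted by Benjamini-Hochberg over all probes tested, with a threshold of 0.05, and unadjusted p from limma is given beside it. An exact permutation test of 3 against 3 arrays cannot go below p = 0.1 and was not used. The number of arrays limits the precision. The members and lists were chosen with earlier results of these data known. Values on every array are given for both EXO1 probes, for genes with an unadjusted p under 0.05 in DHT against DMSO, and for the largest and smallest change of each list. Of the other repair, replication and mitosis lists the called genes and the 3 largest changes are named. Of the cell type markers, changes are given only for KLK2 and FOLH1. Replicate numbers were not used as a block, since arrays of the same number deviated together (every correlation over 0.1) in 5 of 15 pairs of groups, and DHT with DMSO was not among them. Promoter windows came from RefSeq, build GRCh38.p14, with matches counted over all windows of a gene. Alternatives were no filter and a 60th percentile filter, trended and robust moderation, array weights, only the groups of a contrast, either replicate number as a block, the mean over a gene's probes, and each array left out in turn. Plots used matplotlib 3.10.9.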

Additional observations from a re-analysis of the deposited data

How the results depend on the processing

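By its brightest probe, 0 of the 29 repair genes passed the adjusted p of 0.05 in DHT against DMSO (0.191% of all probes). With trended and robust moderation 1 passed (EXO1, with 0.233% of all probes). With array weights 7 passed (EXO1, RAD51AP1, RAD54B, BLM, EME1, FANCG and CHEK1), and so did 2.45% of all probes. With the DHT and DMSO arrays alone 3 passed (EXO1, RAD54B and CHEK1, with 0.307% of all probes). Without the arrays numbered 2, an alternative chosen after seeing the data, 1 passed (0.113% of all probes). Leaving out 1 array at a time gave 0 to 3. With the title's replicate number as a block 9 passed (EXO1, BRCA1, RAD51AP1, RAD54L, RAD54B, BLM, EME1, CHEK1 and CHEK2), among 469 probes in all, 1.66% of those tested. The deviations of same-numbered DHT and DMSO arrays had correlations of 0.02, 0.07 and 0.10, so that the numbers were not taken to pair these samples, although 5 of 15 pairs of groups had every correlation over 0.1 (0.39, 0.55 and 0.39 for DHT with flutamide and DHT). Over the 29 genes, however, array 2 was the lowest in all 6 groups, and DHT minus DMSO was 0.53 for each number. The count of 0 thus rests on a fit that leaves out this shared shift, and whether the numbers pair the samples was not tested. With the description's number as a block 0 genes and 39 probes passed. The block changed no call of these genes in the other comparisons.

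The EXO1 probe ILMN_1673721 passed at 1.45 with trended and robust moderation, 1.45 with the replicate block, 1.46 with array weights, 1.45 with the contrast's groups alone and 1.52 without the arrays numbered 2, and ran from 1.41 to 1.501 with 1 array left out. The EXO1 probe ILMN_2351916 did not pass at 1.13 without the arrays numbered 2, and ran from 1.25 to 1.51 with 1 array left out. The median response over the genes with flutamide was 0.50 without the arrays numbered 2, and the median of the response with MJC13 minus that with flutamide ran from -0.10 to 0.24 with 1 array left out. Other values near 0 also changed sign with 1 array left out: the medians of flutamide alone (-0.04 to 0.08), MJC13 alone (-0.19 to 0.12) and MJC13 against flutamide with DHT (-0.19 to 0.10), ATM (-0.21 to 0.17), PALB2 (-0.10 to 0.20) and PMS2 (-0.09 to 0.06) with DHT, the change of response by MJC13 on EXO1 probe ILMN_1673721 (-0.40 to 0.20) and the response with flutamide on ILMN_2351916 (-0.01 to 0.49). None of these single-gene values passed the adjusted p with 1 array left out. The cause of these shifts was not tested. With 3 arrays a group, the 95% intervals of single genes reached 0.32 to 1.01 to either side.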
